A study of Homo sapiens and Mus musculus with 10 samples.

Results

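The genes that import, glycosylate and export secretory proteins at the endoplasmic reticulum (ER) were followed across 7 RNA-seq libraries of HEK293T cells, an established human embryonic kidney line. The set holds 43 genes matched by symbol, with SRPR listed under its current name SRPRA. It divides into 23 translocon genes (the SEC61 channel, SEC62, SEC63, the SSR proteins, the signal recognition particle and its receptor, and signal peptidase), 6 glycosylation genes (the core oligosaccharyltransferase subunits) and 14 ER export genes (the COPII coat and its cargo receptors). All 43 have a row among the 16120 of the stress-set table, and 41 have a row among the 11976 of the genotype-set table, from which SEC61A2 and SEC61G are absent. A row counts a single RefSeq transcript, so its reads need not be the total of the gene.

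A protein bound for the secretory pathway is recognised on the ribosome by the signal recognition particle, handed to the SRP receptor and threaded through the SEC61 channel. Signal peptidase removes its leader peptide and oligosaccharyltransferase attaches N-linked sugar chains while the chain is still entering the lumen. Folded cargo leaves in COPII vesicles, which form when the GTPase SAR1 recruits the inner coat of SEC23 and SEC24 and then the outer coat of SEC13 and SEC31. In mammals many of these genes are known targets of the unfolded protein response, in particular of the transcription factors XBP1 and ATF6.

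The stress set held 1 library each of wild-type (WT) cells treated with 300 nM thapsigargin (TG) for 6 h, WT cells deprived of glucose (GD) for 24 h and WT mock cells. TG blocks the calcium pump of the ER and causes ER stress, and the submitters describe GD as metabolic oxidative stress. The genotype set held 1 library each of UFD1s-deficient GD, UFD1s-deficient mock, WT GD and WT mock cells, with the same duration of GD. UFD1 works with the ATPase VCP in extracting ubiquitinated proteins. The sources used here do not say how the deficient line was made or whether it is a clone. The labels do not say whether libraries came from separate cultures, so p-values measure only the spread between these libraries, which may be technical.

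Reads counted on transcripts ranged from 11461365 to 19024327 per library. Between the sets, WT mock cells gave counts further apart (chi-square over its degrees of freedom 73.8) than deficient and WT mock cells did within the genotype set (17). The HEK293 markers VIM (11447 to 16304 reads) and CDH2 (3437 to 5110 reads) were present in every library, while PAX2 was not listed and KRT8 had 0 to 77 reads. Of the markers of blood, liver and muscle, ALB had 5 reads in GD and 0 in the other stress-set libraries, DES had 2 to 20, and PTPRC, CD3E, APOA1 and MYH1 were not listed. The UFD1 row of the genotype set had 193 and 199 reads in deficient GD and mock, against 107 and 168 in WT GD and mock. Whether it covers what differs in the deficient line is unknown, so it does not check the labels.

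In cells treated with TG, 9 of the 36 members that reached 50 reads in TG or mock were 2-fold or more higher than in mock, and none was 2-fold or more lower. The 9 were SEC24D, SEC31A and SEC24C of the COPII coat and SEC11C, SRPRB, SEC61A1, SSR3, SSR2 and SSR1 of the translocon. They are 25% of the members, while 4.73% of the 9116 transcripts with as many reads were 2-fold or more higher and 3.31% were lower. At 1.5-fold, 19 of the 36 members (52.8%) were higher, against a background of 12%, and none was lower, against 10.4%. Each treatment had 1 library, so the ratios have no replicate check and no test, and their intervals cover counting error only. Values are CPM, reads scaled to the size of the library, after TMM. TMM is a factor that sets the bulk of transcripts level between libraries, here within each set. In bulk RNA, fewer cells that carry a transcript and less of it per cell cannot be told apart.

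The subgroups differed in how their members were placed. Of the translocon genes, 6 of 18 were 2-fold or more higher in TG, the median log2 ratio was 0.68 and 17 of the 18 lay above mock. All 6 glycosylation genes lay above mock, but none reached 2-fold, and their median log2 ratio was 0.48. Among the export genes 3 of 12 were 2-fold or more higher, with a median log2 ratio of 0.63 and 11 of 12 above mock. The median of all transcripts was 0.01. With library totals alone as the scale it was -0.10, SSR1 came to 0.93 on the log2 scale, short of 2-fold, and SEC62 and SPCS1 lay below mock, while the other 8 of the 9 stayed past 2-fold.

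**Figure D1:**
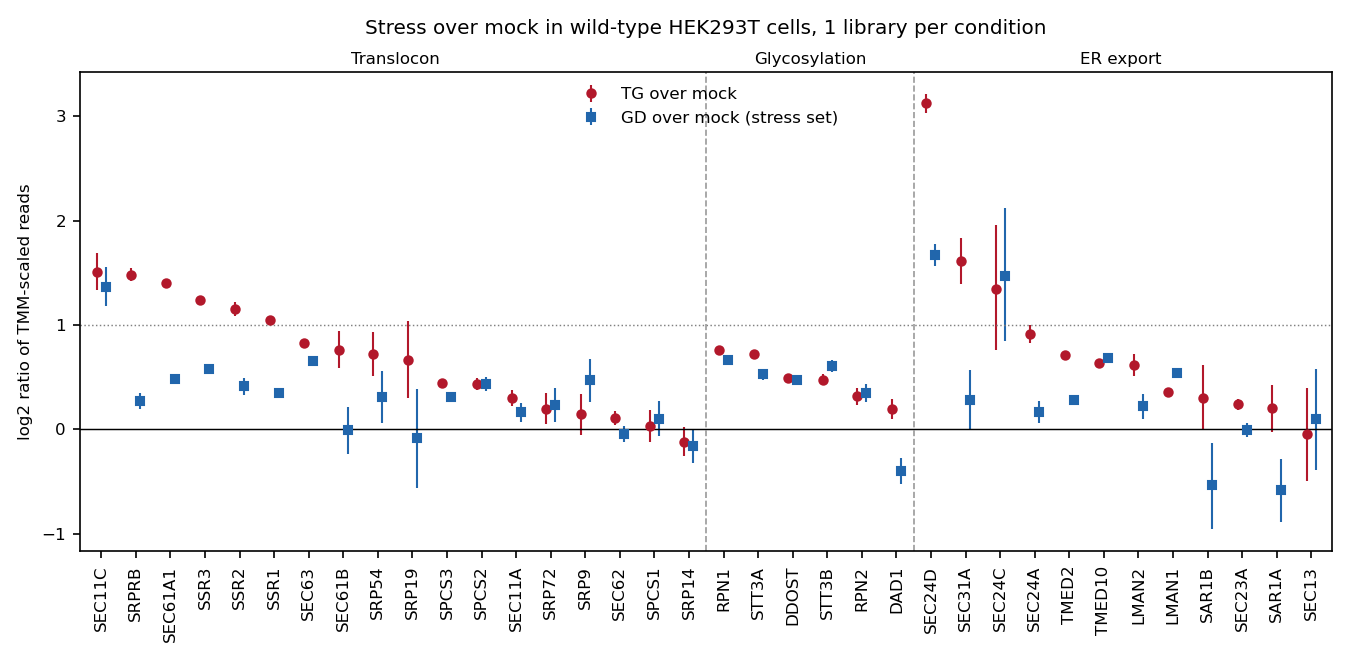
Log2 ratio of TG over mock (circles) and of GD over mock (squares) in the stress set for the 36 members with 50 or more reads in TG or mock, by subgroup. Bars are exact 95% counting intervals, each condition has 1 library, and the dotted line marks 2-fold. SEC24D stands highest in TG at 8.71-fold, while the glycosylation genes stay below the line.

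SEC61A1, the pore-forming subunit of the protein-conducting channel, had 1615 CPM in TG, 852 in GD and 611 in mock. The TG value was 2.64-fold that of mock (95% counting interval 2.59 to 2.70). SEC61B, a small subunit of the same channel, had 38.9 CPM in TG, 22.9 in GD and 23.0 in mock, a TG ratio of 1.70-fold from 726 and 415 reads. Both channel subunits were thus highest in TG, and only SEC61A1 stood clearly above mock in GD. The rows of SEC61A2 and SEC61G held at most 16 and 2 reads. SEC61A2, counted on a non-coding transcript, had 0 reads in TG against 16 in mock, too few for the rule of size. Set against a floor of 3 counts in the TG library it was 5.51-fold lower, with an exact 95% lower limit of 3.98.

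The 3 measured subunits of the SSR (TRAP) complex, which assists the channel with some substrates, moved over a narrow range in TG. SSR3 had 1399 CPM in TG, 888 in GD and 593 in mock, SSR2 had 330, 197 and 148 in the same order, and SSR1 had 1088, 671 and 525. Their TG ratios ran from 2.07-fold to 2.36-fold and the GD ratios of SSR1 and SSR2 were 1.28-fold and 1.33-fold. Each subunit thus stood in the order TG, GD, mock in the stress set. In the genotype set the GD ratios of SSR1, SSR2 and SSR3 were 0.871-fold, 0.899-fold and 0.924-fold in WT cells. In deficient cells they were 0.921-fold, 1.07-fold and 0.977-fold. The row of SSR4 held at most 4 reads in the stress set.

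SRPRB, the membrane-anchored subunit of the SRP receptor, had 470 CPM in TG, 204 in GD and 168 in mock. In the stress set it was 2.80-fold higher in TG than in mock (95% counting interval 2.68 to 2.91) and 1.21-fold higher in GD (1.15 to 1.28). In the genotype set its GD ratio was 0.952-fold in WT cells and 0.967-fold in deficient cells, both below mock. The particle that the receptor binds stood lower in the ranking. None of its 5 measured proteins reached 2-fold, and they ran from 0.923-fold for SRP14 to 1.65-fold for SRP54, the GTPase that binds the signal sequence. SRP14, part of the domain that slows elongation, had 43 CPM in TG, 41.7 in GD and 46.6 in mock (TG ratio 0.923-fold, 0.837 to 1.02). Its counting interval includes 1, and it is among the members with annotated pseudogenes, 4 in its case, whose reads could be shared.

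SEC11C, 1 of the 2 catalytic subunits of signal peptidase, had 56.5 CPM in TG, 51.3 in GD and 19.9 in mock. Its ratios were 2.84-fold in TG (2.52 to 3.22) and 2.58-fold in GD (2.26 to 2.95), so both stresses lay well above mock. SEC11A, the other catalytic subunit, had 157 CPM in TG, 142 in GD and 127 in mock, which is 1.23-fold in TG (1.17 to 1.30). The accessory subunits SPCS1, SPCS2 and SPCS3 were at 1.02-fold, 1.35-fold and 1.36-fold in TG. SEC11C was the single subunit of the peptidase past 2-fold in either stress.

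SEC63, which couples the channel to the lumenal chaperone BiP, had 627 CPM in TG, 557 in GD and 354 in mock (TG ratio 1.77-fold, 1.72 to 1.83). Its partner SEC62 had 215, 194 and 200 CPM in TG, GD and mock (TG ratio 1.08-fold, 1.03 to 1.13). The pair thus separated in both stresses of the stress set, with SEC63 higher and SEC62 within 1.1-fold of mock.

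Among the oligosaccharyltransferase subunits, RPN1 (ribophorin I) had 780 CPM in TG, 732 in GD and 460 in mock, and STT3A, the catalytic subunit of the channel-bound form, had 589, 516 and 358. DDOST had 542, 537 and 386 CPM in TG, GD and mock, and STT3B, the catalytic subunit of the other form, had 371, 406 and 267. The last pair, RPN2 and DAD1, had 154, 158 and 124 CPM and 98.9, 65.6 and 86.2 CPM in the same order. TG ratios ran from 1.15-fold for DAD1 (1.07 to 1.23) to 1.69-fold for RPN1 (1.65 to 1.74), and 5 of the 6 subunits lay above mock in GD too. DAD1, a small subunit first found as a defender against cell death, was the exception, at 0.761-fold of mock in GD (0.698 to 0.829).

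SEC24D, a cargo-binding subunit of the inner COPII coat, had 524 CPM in TG, 191 in GD and 60.2 in mock, from 9770, 2340 and 1087 reads of transcript NM_014822.2. It was 8.71-fold higher in TG (8.18 to 9.28) and 3.17-fold higher in GD (2.95 to 3.41), and it ranked 26 of the 9116 transcripts in TG. Its paralogues were lower. SEC24C, from 89, 64 and 34 reads, had 4.77, 5.22 and 1.88 CPM in TG, GD and mock (TG ratio 2.54-fold, 1.69 to 3.88), and SEC24A had 185, 110 and 98.3 CPM (1.88-fold), the member next below the 2-fold line, as SSR1 was the one next above it. SEC24B had 43, 52 and 43 reads, a TG ratio of 0.969-fold (0.620 to 1.51), and was too shallow for the rule of size in TG. SEC23A, the GTPase-activating partner of SEC24, had 330, 278 and 279 CPM in TG, GD and mock (TG ratio 1.18-fold, 1.14 to 1.23), and the SEC23B row held at most 10 reads.

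SEC31A, the rod of the outer COPII coat, had 38.1 CPM in TG, 15.2 in GD and 12.5 in mock, a TG ratio of 3.06-fold (2.63 to 3.57) and a GD ratio of 1.22-fold (0.999 to 1.49). SEC13, its partner in the outer coat, had 88, 64 and 88 reads in TG, GD and mock, and a TG ratio of 0.969-fold (0.713 to 1.32). SEC31A thus stood high in TG, its GD interval included 1, and no difference was detectable for SEC13 at this depth.

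SAR1A and SAR1B, the GTPases that start coat assembly, had 19.0 and 10.7 CPM in TG, 11.0 and 5.96 in GD, and 16.5 and 8.63 in mock. In TG their ratios were 1.15-fold (0.984 to 1.35) and 1.24-fold (0.997 to 1.53), intervals that include 1. In GD they were 0.668-fold (0.541 to 0.821) and 0.690-fold (0.515 to 0.917), so both lay below mock, and SAR1A has 4 annotated pseudogenes. In the stress set the cargo receptors LMAN1 (ERGIC-53), LMAN2, TMED2 and TMED10 were all above mock in both stresses. Their ratios were 1.28-fold to 1.64-fold in TG and 1.16-fold to 1.61-fold in GD. In the genotype set their GD ratios ran from 0.946-fold to 1.08-fold in WT cells and from 0.9465-fold to 1.15-fold in deficient cells.

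The stress libraries differ in duration as well as agent, and the TG and GD ratios share their mock library. In GD of the stress set 3 of 37 members were 2-fold or more higher (8.11%, against a background of 3.73%), SEC24D, SEC24C and SEC11C, and none was 2-fold lower (background 3.57%). Set against GD directly, TG was 2-fold or more higher for 3 members, against a background of 4.58% higher and 3.99% lower, and for none lower. They were SEC24D at 2.74-fold (2.62 to 2.87), SEC31A at 2.51-fold (2.13 to 2.97) and SRPRB at 2.31-fold (2.21 to 2.42). At the other end SEC24B was at 0.543-fold (0.354 to 0.829), from 43 reads in TG and 52 in GD, followed by SRP9 at 0.799-fold (0.696 to 0.918) and LMAN1 at 0.877-fold (0.861 to 0.893). At 1.5-fold, 8 members were higher and none lower in stress-set GD than in mock (backgrounds 11.5% and 11.2%), and 13 were higher and 1 lower in TG than in GD (backgrounds 13.5% and 11.9%). In the same libraries HSPA5, which encodes BiP, was 20.1-fold higher in TG (19.8 to 20.5) and 9.80-fold higher in GD (9.62 to 9.98).

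Since most members lay above mock in TG, their RefSeq promoters on GRCh38.p14 (300 bases, most of them upstream of the start) were searched for elements known from the unfolded protein response. The authors' counts were made on hg19, and these coordinates are from the other build only. A window was found for 38 members, 50 in all, and none for SRPRA, SPCS1, RPN1, STT3B and SEC24D. The 150 bases upstream are shown for 5 genes that were 2-fold or more higher in TG, and for SEC62 and SRP14, which were not. SSR3 is among the 5 as the one whose 150 bases lack the element described next. They run 5′ to 3′ on the gene's own strand and end at the base before the start, and capitals mark CCACG or its reverse complement CGTGG.
SEC61A1 (chr3:128052287-128052436, plus strand): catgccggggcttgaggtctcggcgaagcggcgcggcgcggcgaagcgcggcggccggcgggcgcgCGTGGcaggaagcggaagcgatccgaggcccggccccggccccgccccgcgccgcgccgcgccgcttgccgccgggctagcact
SSR1 (chr6:7313200-7313349, minus strand): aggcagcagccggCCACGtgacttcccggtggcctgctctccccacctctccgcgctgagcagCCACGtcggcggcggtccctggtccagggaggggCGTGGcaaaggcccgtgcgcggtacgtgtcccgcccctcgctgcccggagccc
SSR3 (chr3:156555118-156555267, minus strand): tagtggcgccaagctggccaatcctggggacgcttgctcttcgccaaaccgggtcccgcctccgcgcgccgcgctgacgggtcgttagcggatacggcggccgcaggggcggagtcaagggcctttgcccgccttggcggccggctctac
SRPRB (chr3:133805665-133805814, plus strand): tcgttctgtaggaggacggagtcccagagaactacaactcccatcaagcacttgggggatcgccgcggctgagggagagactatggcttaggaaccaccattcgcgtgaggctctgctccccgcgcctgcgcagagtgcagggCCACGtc
SEC31A (chr4:82891154-82891303, minus strand): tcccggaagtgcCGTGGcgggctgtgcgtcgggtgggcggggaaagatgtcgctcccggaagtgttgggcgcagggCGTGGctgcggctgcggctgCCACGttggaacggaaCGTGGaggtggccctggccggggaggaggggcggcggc
SEC62 (chr3:169966657-169966806, plus strand): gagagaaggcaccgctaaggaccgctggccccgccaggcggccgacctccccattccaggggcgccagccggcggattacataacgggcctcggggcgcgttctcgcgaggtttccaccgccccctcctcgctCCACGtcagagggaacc
SRP14 (chr15:40039182-40039331, minus strand): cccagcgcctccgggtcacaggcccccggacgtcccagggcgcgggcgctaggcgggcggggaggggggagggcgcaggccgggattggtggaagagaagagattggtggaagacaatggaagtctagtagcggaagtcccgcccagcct

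CCACG, the part of the ER stress element bound by ATF6 and XBP1, was in the 150-base windows of 7 of the 8 TG-high genes that had one. SEC31A held 4 copies, SSR1 3, SEC61A1 and SRPRB 1 each, and SSR3 none. Of the genes shown that were not higher, SEC62 held 1 copy and SRP14 none, too few genes to compare the groups by this element. On either strand CCACG was in 76% of the 50 member windows of 300 bases and in 38.1% of 35093 windows of all genes. Mean GC content was 64.3% and 57.5% in the same order. The part of GC content in the difference between the shares with CCACG was not tested. Among the members, 92.9% of 14 windows of genes past 2-fold in TG and 69.4% of 36 windows of the others held it, where windows of 1 gene can overlap.

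Longer elements were rare. TGACGTGG, the XBP1-binding UPRE, which contains CGTGG, was in 12% of member windows (6 genes) and in 0.729% of all windows. SSR3 held it among the TG-high genes, in another of its windows than the one shown, and SEC23A, SEC24A, SEC62, SRP19 and SSR4 held it among the others. The full ER stress element ERSE and its second form ERSE-II, which both contain CCACG, were in none of the 50 windows and in 0.0769% and 0.0541% of all, both strands searched. TGATGNAA, an element of ATF4 and C/EBP factors, was in 2% of member windows (SRPRB) and in 3.62% of all. These matches describe the letters in the windows and show no binding.

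Levels per transcript length, available for 35 members, spanned a wide range in the stress set. In mock, TMED2 stood highest at 266 CPM per kb, followed by RPN1 at 199, LMAN1 at 198, DDOST at 182, SEC61A1 at 168 and SSR3 at 160. RPN1 and LMAN1 stood within 1 CPM per kb of each other and cannot be ordered, since mock had 1 library here. SAR1B was lowest at 1.29 CPM per kb in mock, after SRP19 at 2.99 and SEC31A at 3.10. In TG the highest level per length was that of SEC61A1, 444 CPM per kb, with TMED2 at 438. SEC24D reached 130 CPM per kb in TG and 47.4 in GD, against 14.9 in mock, a level in mock close to that of SEC24A at 15.6.

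**Figure D2:**
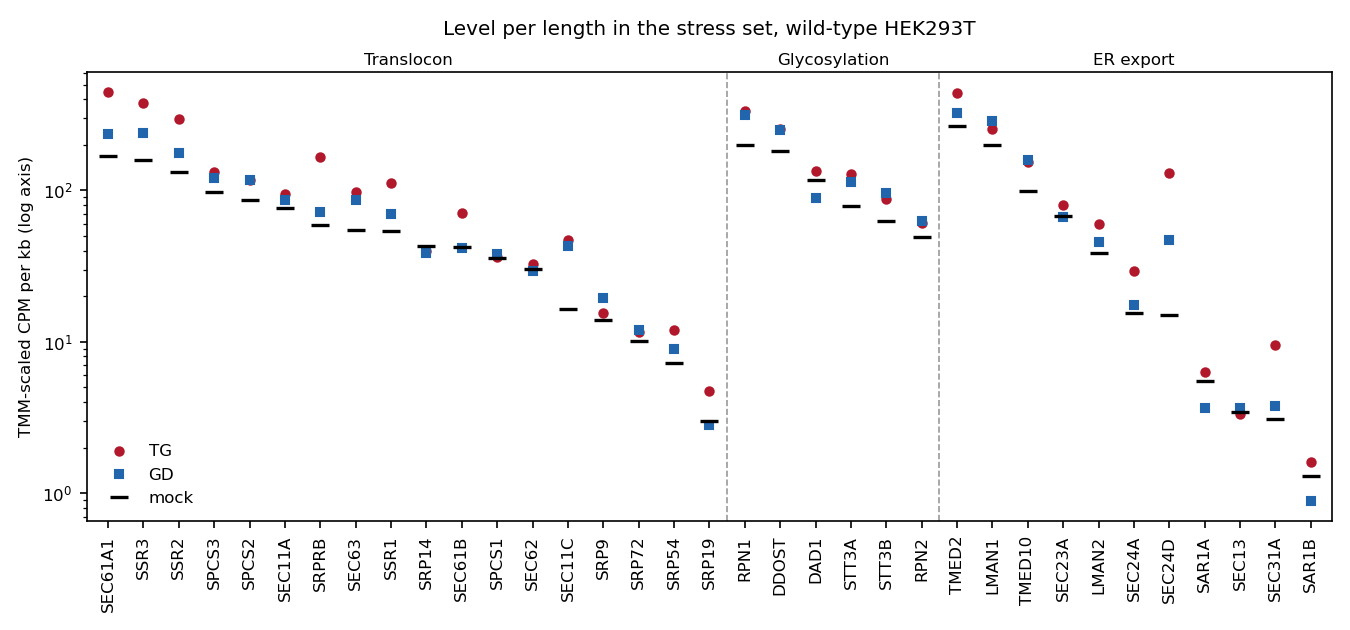
Level of 35 members per transcript length (CPM per kb, log axis) in the TG, GD and mock libraries of the stress set, 1 library each, ordered by mock within each subgroup. SEC24D moves farthest, at 130 CPM per kb in TG and 14.9 in mock, and the OST subunits lie between 49.2 and 199 in mock.

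Glucose deprivation could be tested, since both sets and both genotypes gave a GD and a mock library, 3 pairs in all. RNA of 5 of the 37 members tested rose (13.5%, against a background of 9.75% of 10368 transcripts) and that of 2 fell (5.41%, against 11.1%). The 5 were SEC24D, SEC11C, RPN1, SEC63 and STT3B, and the 2 were SAR1A and DAD1, by edgeR's quasi-likelihood test with set, genotype and treatment as terms at an adjusted p of 0.05. At an unadjusted p under 0.05 there were 10 members and 3659 transcripts. The members' median log2 change was 0.10, against -0.02 for all transcripts, so the set as a whole lay close to the rest.

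SEC24D had 191, 56.4 and 67.8 CPM in GD of the stress set, of the genotype-set WT cells and of the deficient cells, against 60.2, 46.5 and 47.1 in the matching mock libraries. It rose by 0.83 on the log2 scale (SE 0.22, n = 3 pairs, edgeR adjusted p = 0.0267) and was higher in 3 of 3 pairs, with the largest gap in the stress set. The log2 change was 0.40 without the stress-set mock and 0.41 without the stress-set GD library, 1.10 without the genotype-set WT mock library and 1.11 without the genotype-set WT GD library. DESeq2 did not call SEC24D (adjusted p = 0.148), the member it lost of the 5. SEC11C had 51.3, 39.3 and 38.7 CPM in GD against 19.9, 30.5 and 29.4 in mock in the same order, and rose by 0.70 (SE 0.19, edgeR adjusted p = 0.0298), or by 0.38 without the stress-set mock or the stress-set GD library. Every GD library of SEC11C lay above every mock library, which was not so for SEC24D. Each set was scaled on its own, so overlap across sets is a description and can reflect an offset between the sets.

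RPN1 had 732, 530 and 626 CPM in GD against 460, 446 and 525 in mock, in the order stress set, genotype-set WT and deficient cells. It rose by 0.39 on the log2 scale (SE 0.10, edgeR adjusted p = 0.0275), and its GD and mock libraries did not overlap. SEC63 had 557, 360 and 369 CPM in GD against 354, 316 and 306 in mock, with no overlap, and rose by 0.37 (SE 0.10, edgeR adjusted p = 0.0344). STT3B had 406, 291 and 337 CPM in GD against 267, 245 and 304 in mock, and rose by 0.33 (SE 0.10, edgeR adjusted p = 0.0470) with overlapping libraries. Without the stress-set mock library these 3 changes were 0.25 for RPN1, 0.23 for SEC63 and 0.20 for STT3B.

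SAR1A, the GTPase, had 11.0, 15.9 and 18.2 CPM in GD against 16.5, 31.2 and 31.0 in mock. It fell by 0.78 on the log2 scale (SE 0.15, edgeR adjusted p = 0.00808), lower in 3 of 3 pairs, although the ranges overlapped because the stress set lay lower throughout. DAD1 had 65.6, 72.6 and 71.7 CPM in GD against 86.2, 102 and 93.3 in mock, with no overlap, and fell by 0.43 (SE 0.094, edgeR adjusted p = 0.0124). Of the 7 called members 4 had GD and mock libraries that did not overlap, and of all 37 members 5 did (13.5%), against 21.6% of all transcripts.

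By subgroup, 2 of 18 tested translocon genes rose and none fell (median log2 change 0.05), 2 of 6 glycosylation genes rose and 1 fell (0.17), and 1 of 13 export genes rose and 1 fell (0.04). SRP9, the partner of SRP14, had 30.9, 35.8 and 21.9 CPM in GD against 22.4, 22.3 and 18.9 in mock, a log2 difference of 0.45 (SE 0.15, edgeR adjusted p = 0.0556). SEC31A was at 0.52 (SE 0.19, edgeR adjusted p = 0.0857) and SEC24C at 0.65 (SE 0.39, edgeR adjusted p = 0.268), from 31 to 64 reads in the GD libraries. Both were among the 3 highest export genes, and neither passed the threshold.

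At the lower end, SEC61B had 22.9, 22.4 and 23.5 CPM in GD against 23.0, 38.3 and 28.4 in mock, a log2 difference of -0.36 (SE 0.17, edgeR adjusted p = 0.159). SAR1B was at -0.38 (SE 0.21, edgeR adjusted p = 0.226), SRP14 at -0.16 (SE 0.10, edgeR adjusted p = 0.303), SPCS3 at -0.12 (SE 0.13, edgeR adjusted p = 0.522) and SEC24A at -0.12 (SE 0.11, edgeR adjusted p = 0.483). SEC61A1, which was 2.64-fold higher in TG, had a GD log2 difference of 0.14 (SE 0.11, edgeR adjusted p = 0.411). Its GD and mock values were 852 and 611 CPM in the stress set, 608 and 621 in the genotype-set WT cells, and 727 and 736 in the deficient cells, so the gap was confined to the stress-set pair.

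The 3 pairs were not alike. Of the 37 members, 29 lay above mock in the stress set, 17 in the WT cells of the genotype set and 19 in the deficient cells, while 12 did so in 3 of 3 pairs and 5 lay below mock in 3 of 3. Across the 3 pairs of all 10368 transcripts these shares were 26.9% and 28.4%, against 32.4% and 13.5% of the members. HSPA5 was 9.80-fold higher in GD in the stress set, 3.33-fold in the WT cells of the genotype set and 5.13-fold in the deficient cells, and the part of that difference in the members' values was not tested. The 3 pairs share no library. The members' log2 ratios correlated with a Pearson r of 0.45 (stress set and genotype-set WT) and 0.62 (stress set and deficient) over 37 members. Over all shared transcripts these were 0.46 and 0.45. Between genotype-set WT and deficient, r was 0.56 over the members and 0.63 over 11976 transcripts. These are descriptions across genes, which are not independent replicates.

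**Figure D3:**
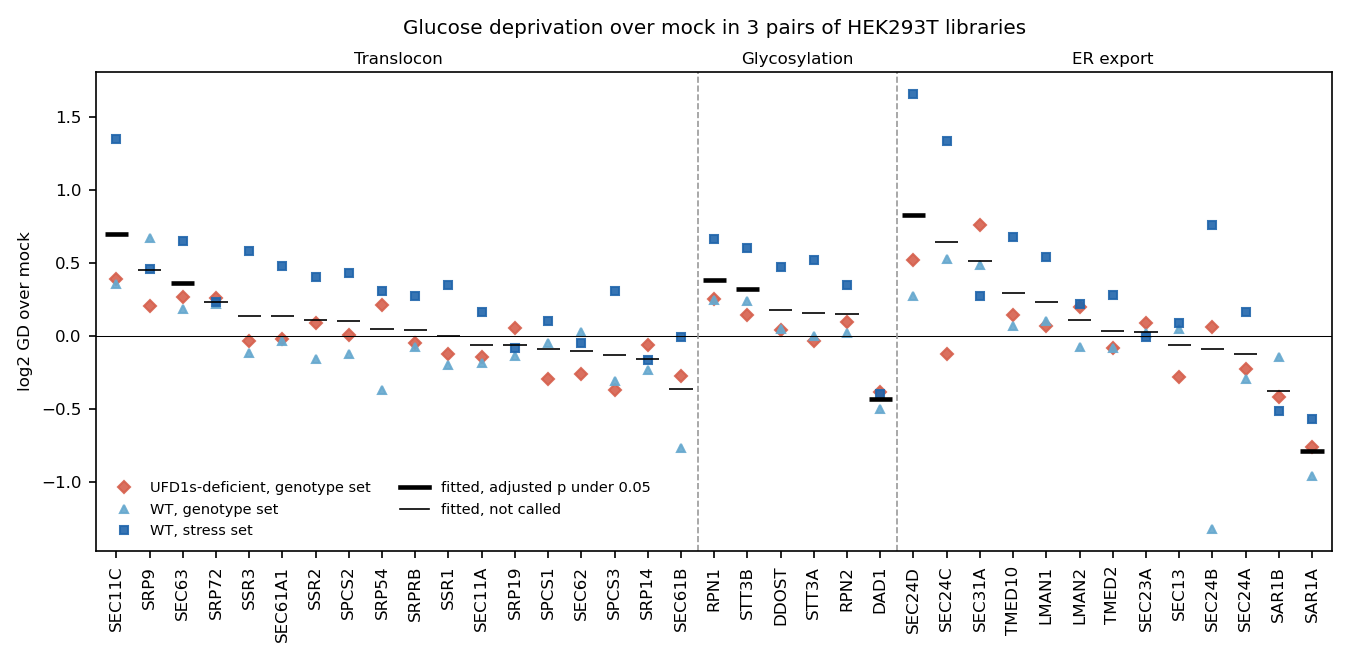
Log2 ratio of GD over mock for the 37 tested members in the deficient pair (diamonds), the genotype-set WT pair (triangles) and the stress-set pair (squares), by subgroup. Horizontal lines are the fitted changes, thick where edgeR's adjusted p was under 0.05. DAD1 and SAR1A lie below 0 in 3 of 3 pairs, and of the 18 translocon genes 8 lie above 0 in the deficient pair, 5 in the genotype-set WT pair and 14 in the stress set.

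The calls rested on few libraries. In the genotype set alone, 7 members were called higher and 6 lower in GD, against backgrounds of 19.1% and 19.9%, with 1 residual degree of freedom. SEC24D, SEC11C, RPN1, SEC63 and STT3B were among the 7, with SRP9 and SEC31A, and SAR1A and DAD1 were among the 6, with SPCS3, SEC24A, SSR1 and SEC61B. Without the deficient mock or the deficient GD library no member was called. The genotype term then takes up the deficient library left, so these fits in effect repeat the WT libraries alone. Without the stress-set mock or the stress-set GD library 7 were called higher and 6 lower. Here the set term takes up the stress library left, so these fits in effect repeat the genotype set alone and are no separate check. Without the genotype-set WT mock library 3 were higher and 0 lower, and without the genotype-set WT GD library 2 were higher and 1 lower. In these last fits the set and genotype terms take up the genotype-set WT library left. Both thus in effect repeat the stress-set and deficient pairs and are no separate checks of each other. The calls over all transcripts shifted widely too. They ran from 219 to 1970 higher and from 268 to 2069 lower with 1 library left out, against 1011 and 1153 of 10368 in the full fit. The members' counts are therefore no result about the members alone. Over 15 alternatives each of the 7 members kept its direction in 15 and was called in 7 to 10, with adjusted p-values from 9.90e-09 to 0.530. The 7 were picked as called in these same libraries, and each moved 1 way in 3 of 3 pairs. Their kept direction was thus largely set beforehand, and the alternatives that repeat each other count more than once.

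The UFD1s-deficient cells were compared with WT cells in the same fit. No member was called higher or lower in the deficient cells by edgeR at an adjusted p of 0.05, where the background was 0.328% of transcripts higher and 0.781% lower. DESeq2 called 0 members as well. At an unadjusted p under 0.05 there were 3 members and 1470 transcripts. The lowest adjusted p among the members was 0.262, for SRP9, which had 21.9 and 18.9 CPM in deficient GD and mock against 35.8 and 22.3 in WT GD and mock, a log2 difference of -0.48 (SE 0.18).

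Within the genotype set the deficient libraries lay on the same side of WT in both treatments for several members. SSR3 had 575 and 588 CPM in deficient GD and mock against 442 and 478 in WT GD and mock, a log2 difference of 0.34 (SE 0.16, edgeR adjusted p = 0.377). SEC61A1 had 727 and 736 CPM in deficient GD and mock against 608 and 621 in WT GD and mock, a log2 difference of 0.25 (SE 0.14, edgeR adjusted p = 0.462). SRPRB had 193 and 199 CPM in deficient GD and mock against 157 and 165 in WT GD and mock, a log2 difference of 0.28 (SE 0.12, edgeR adjusted p = 0.311). In all 3 the deficient libraries exceeded both WT libraries of the genotype set, but the fit that includes the stress set did not call them.

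TMED2, a cargo receptor of the p24 family, went the other way, with 473 and 500 CPM in deficient GD and mock against 585 and 618 in WT GD and mock, a log2 difference of -0.30 (SE 0.12, edgeR adjusted p = 0.282). Of the 37 members 16 were higher in the deficient cells in both treatments (43.2%) and 11 lower in both (29.7%), against 34.5% and 33% of all transcripts. In the genotype set alone, where the spread comes from 4 libraries with 1 residual degree of freedom, edgeR called STT3B, SEC61A1, RPN1, SRPRB, SSR3 and SPCS2 higher and SRP9 and TMED2 lower. Those 6 and 2 are 16.2% and 5.41% of the members, against backgrounds of 8.83% and 9.91%. Over 13 alternatives each of the 8 kept its direction in 13 and was called in 3. The 8 were picked by the fit of the genotype set alone, which is 1 of the 13. Leaving out either stress-set library in effect repeats that fit on the same 4 libraries. The tally is therefore no added support for these 8.

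**Figure D4:**
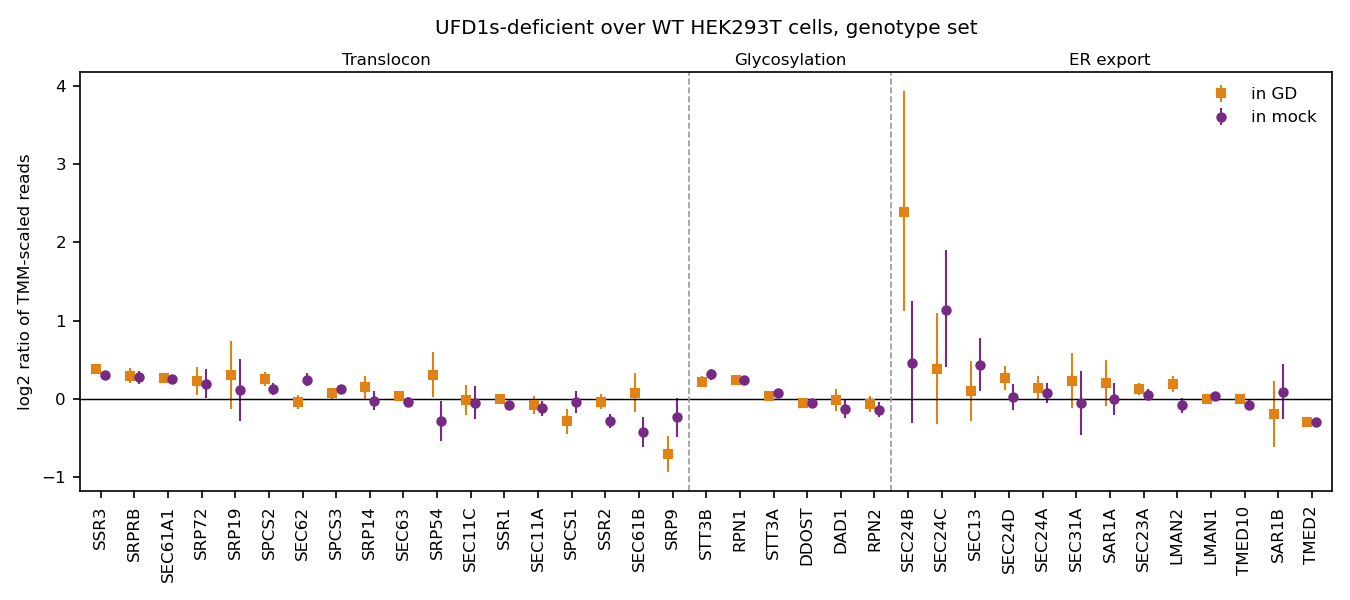
Log2 ratio of deficient over WT for the 37 tested members in GD (squares) and in mock (circles) of the genotype set, by subgroup and ordered by the fitted difference. Bars are exact 95% counting intervals, and each condition has 1 library. SSR3, SRPRB, SEC61A1, STT3B and RPN1 lie above 0 and TMED2 below 0 in both treatments, and SEC24B has the widest interval, from 33 and 6 reads in GD.

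Whether the GD response differed by genotype was tested as an interaction on 1 residual degree of freedom. No member was called by edgeR in either direction, against a background of 0 transcripts, and DESeq2 called 0 members too. At an unadjusted p under 0.05 there were 0 members and 123 transcripts. Fitted differences (deficient minus WT) ran from -1.20 for SEC24C (SE 0.79) to 0.41 for SEC31A (SE 0.44) on the log2 scale, and with SE of this size sizeable differences would not have been detected.

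Of the members left out of the joint fit, 4 have different transcripts in the 2 tables. SEC23B, SRP68, SRPRA and SSR4 had 0 to 10 reads in the stress set. In the genotype set SRP68 had 29.2 and 26.6 CPM in deficient GD and mock against 26.1 and 25.1 in WT GD and mock, and SRPRA had 21.7 and 22.5 CPM against 18.1 and 23.0. SSR4, counted there on a non-coding transcript, had 86 and 54 reads in deficient GD and mock against 45 and 24 in WT GD and mock. SEC23B had 30 reads in each deficient library against 62 and 28 in WT GD and mock. Fitted on that table's own rows, SSR4 rose in GD by 0.97 on the log2 scale (SE 0.35, edgeR adjusted p = 0.0364), and the other 3 were not called in GD. This fit was chosen after the data were seen.

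Genes next to these in the pathway gave a frame for the members. The background in TG was 4.73% of 9116 transcripts 2-fold or more higher and 3.31% lower. In TG, 3 of 7 measured COPII regulators were 2-fold or more higher, STX5 (2.83-fold), PREB, the exchange factor of SAR1 (2.47-fold), and TFG (2.69-fold, from 50 and 18 reads). Of 12 other cargo receptors TMED7 (2.75-fold) and TMED9 (2.41-fold) were, of 14 genes of N-glycan precursor assembly ALG12 (2.77-fold) was, and of 10 COPI genes ARF4 was (2.06-fold), with COPG1 just short of 2-fold. None of 5 accessory OST subunits (MAGT1 1.75-fold and TUSC3 0.639-fold, from 33 and 50 reads), 12 translocon partners (EMC9 1.65-fold, TRAM1 1.53-fold) or 6 tail-anchor insertion genes (UBL4A 0.731-fold, WRB 0.810-fold) was, and none of the 7 lists had a gene 2-fold lower. Median log2 ratios were 0.94 for the COPII regulators, 0.52 for COPI, and from -0.04 to 0.26 for the other 5 lists, against 0.01 for all transcripts.

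In GD, 6 of the 71 tested genes of the same lists rose (8.45%) and 9 fell (12.7%), near the shares of all transcripts, 9.75% and 11.1%. By edgeR at an adjusted p of 0.05, TMED7, TMED1 and TMED4 of 12 cargo receptors rose, as did MIA3 of 7 COPII regulators, COPG1 of 11 COPI genes and CAMLG of 7 tail-anchor genes, the last by 0.83 on the log2 scale (adjusted p = 0.00156). Those that fell were PREB and SEC22B, ARF4, ERGIC1, UBL4A and SGTA, OST4, NCLN and DOLK, by 0.29 to 0.58. PREB and ARF4 thus stood above 2-fold in TG and fell in GD, at -0.29 (adjusted p = 0.0470) and -0.48 (adjusted p = 0.0191), both by edgeR. Between genotypes 1 of the 71 genes was called (1.41% lower, against a background of 0.781%). It was COPG2 of the COPI genes, lower in the deficient cells by a log2 difference of -0.75 (SE 0.11, edgeR adjusted p = 0.0188).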

How the data were processed

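Each of the 2 HEK293T tables, as deposited, gives whole read counts for single RefSeq transcripts, not normalized. The labels' protocols name TRIzol for RNA and a TruSeq Ribo Profile kit for the libraries. Build hg19 and the tools Bowtie2, bedtools, cutadapt and FastQC are listed, without versions, per the submitters' processing notes. CPM and their ratios use TMM factors computed here within each table, so CPM of the sets are not on a common scale. The edgeR 4.0.16 quasi-likelihood fits (R 4.3.3) used the 10368 transcripts in both tables that passed filterByExpr, with TMM factors of their own. The terms were set, genotype and treatment, and p-values were adjusted by Benjamini-Hochberg at 0.05. TG has 1 library, so its ratios follow a rule of 2-fold with 50 reads in the higher library, and ratios on the log2 scale use a prior count of 5. Intervals are exact binomial at 95% and cover counting error only, and a floor is 3 counts. Genes named in each subgroup are the 3 highest and the 3 lowest in TG and in GD, beside those called. The members and lists were chosen with earlier results of these data known. Alternatives were RLE and library-total scaling, DESeq2 1.42.0, other filters, joining on symbol, subsets of libraries, other terms, folds and prior counts, and leaving out each library. The scripts were tested on simulated data. The mouse libraries and the deposited fold changes were not used here. Some of the marker genes looked up are not reported here.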

Additional observations from a re-analysis of the deposited data

How the results depend on the processing

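Of the GD calls (5 members higher, 2 lower), library totals alone gave 1 higher, WT libraries alone 0 and 0, and treatment as the only term 0 and 0. The genotype set alone gave 6 lower, against a background of 19.9%. The genotype table's own rows, an alternative chosen after seeing the data, gave 8 higher and 6 lower. For the fits on those rows, of GD or of genotype, the share of all transcripts called was not computed, so their counts have no background. Leaving out 1 library gave 0 to 7 higher and 0 to 6 lower. Of these fits, those without a stress-set library in effect repeat the genotype set alone, and those without a deficient library the WT libraries alone. Those without a genotype-set WT library in effect repeat the stress-set and deficient pairs. DESeq2 called 4 higher, without SEC24D, and 2 lower. For the deficient cells (0 higher, 0 lower), the genotype set alone gave 6 higher and 2 lower, the genotype table's own rows 5 and 2, and leaving out 1 library 0 to 6 and 0 to 2. At 1.5-fold the counts were 19 higher for TG over mock, 8 for stress-set GD over mock, and 13 higher and 1 lower for TG over GD. The GD difference of SSR1 (0.01 on the log2 scale) was -0.157 in the genotype set alone and ran from -0.160 to 0.114 with 1 library left out. The causes were not tested.

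Over all transcripts, 1011 rose and 1153 fell in GD, and with 1 library left out these counts ran from 219 to 1970 and from 268 to 2069. For the deficient cells 34 were higher and 81 lower, with ranges from 2 to 907 and from 2 to 1031. Other settings gave 14 to 1981 and 9 to 2059 for GD, and 22 to 915 and 60 to 1027 for the deficient cells. The interaction could not be fitted with a library left out, since no residual degree of freedom remained. The terms for set and genotype gave each GD and mock pair its own level, so the GD fit was blocked by pair, and treatment as the only term is the fit without that block. The labels give no replicate numbers, so the pairs are those of set and genotype. Library totals alone moved the median of all transcripts to -0.17 in stress-set GD and -0.10 in the joint GD fit, against -0.02 in both under TMM. Rows of few reads (SEC24B, SEC24C, SEC13) limit those members most.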
